A study of Xenopus laevis with 3 samples.

Results

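Wnt, BMP/TGF-beta, FGF, Notch and Hedgehog proteins carry signals between the cells of an embryo, and their coding sequence variation was examined here in tadpoles of Xenopus laevis, the African clawed frog. The species is allotetraploid, so that many genes exist as homeologs, a copy on the long (L) and a copy on the short (S) chromosome of a pair. Members were taken by name from the authors' deposited list of homeolog pairs. The stems were wnt, fzd, lrp5 and lrp6, dvl, axin and apc for Wnt signalling, bmp, bmpr, smad, acvr and tgfb for BMP/TGF-beta signalling, fgf and fgfr, notch, jag and dll, and ptch, smo and gli. This gave 91 of 8660 names, or 182 of 17320 copies. The variant table lists 11603 genes, each with at least 1 missense site (a variant position that changes an amino acid), and 44 of the 182 copies are among them. They hold 78 of the 29008 missense sites.

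RNA was sequenced from whole tadpoles at Nieuwkoop-Faber (NF) stage 42, with 10 tadpoles pooled per cross. There were 3 libraries: 1 from a mating within an inbred albino line, 1 from a mating within the inbred pigmented J strain, and 1 from matings between the albino and the J strain animals in both directions. Embryos of all groups grew in dilute saline (MMR) with gentamycin, an antibiotic, and depth was stated as 30000000 to 47000000 reads per library, paired-end and 100 bases long. Letter codes for the crosses contradict each other within the labels, and no result here uses them. The tables give 1 value for the whole series and none for a library, so no site can be assigned to a cross, no spread between replicates exists, and expression of tissue markers was not analysed here. Intervals for shares (95%, Wilson) cover counting error only. How reads shared by the L and S copies of a gene were assigned is not given in the sources used here.

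In each of these pathways a secreted or membrane-bound ligand binds a receptor at the cell surface. Wnt ligands bind Frizzled receptors with the co-receptors LRP5 and LRP6, and this stops a complex built on Axin and APC from destroying beta-catenin. BMPs and TGF-betas bring together serine/threonine kinase receptors that phosphorylate Smads, FGFs activate receptor tyrosine kinases, binding of Delta or Jagged leads to cleavage of Notch, whose intracellular part enters the nucleus, and Hedgehog relieves the block that Patched puts on Smoothened, which then acts through Gli factors. All are used again and again in vertebrate development, from the body axes of the frog embryo to the growth of its organs.

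The first question was which components carried amino acid changes. Of 90 ligand copies, 11 (12.2%) held a missense site, against 19 of 56 receptor copies (33.9%) and 11 of 32 copies of intracellular components (34.4%). Over all homeolog pairs, 5667 of 17320 copies (32.7%) held a missense site, and in all signalling copies together 24.2% did. A copy is absent from the variant table when it has no missense site there, whether it lacked variants, was covered by too few reads or was not examined, and these cannot be told apart. The share was not adjusted for coding length, and a longer protein has more positions that can vary. No test was made of the share by role.

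Among Wnt ligands, 2 of 34 copies were listed, wnt5b.S and wnt10a.S, with 1 missense and 0 synonymous sites (variants that leave the amino acid unchanged) each. Neither copy of wnt1, wnt3a or wnt8a, the axis-inducing Wnts of frog embryology, was listed. Among FGF ligands, 2 of 28 copies were listed, fgf1.S with 1 missense and 1 synonymous site, and fgf23.2.S with 1 and 2. Neither copy of fgf8 or fgf4, which act in mesoderm and limb, was listed. The 28 copies include fgf11 and fgf14, which were counted as ligands by name although their proteins are not secreted. Those were listed in neither copy. BMP and TGF-beta ligands were listed in 5 of 22 copies. At the other end stood the Gli transcription factors, with 5 of 6 copies listed, and the Wnt components inside the cell (Dishevelled, Axin and APC), with 4 of 8. Smads, which carry BMP and TGF-beta signals to the nucleus, were listed in 2 of 18 copies, smad6.S and smad9.S, and their share differs from those of the other intracellular components without a test of the difference. The central transducers smad1, smad2, smad3 and smad4 (the last under 2 names, smad4.1 and smad4.2), the receptors fgfr1 and fgfr2, the Hedgehog receptor ptch1 and the Notch ligand dll1 were listed in neither copy. That was the commonest state, found in 59.3% of the signalling pairs and 49.9% of all pairs. Other central components were listed, notch1 and smo in both copies and apc, lrp6, bmp4 and tgfbr1 in 1 copy.

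**Figure D1:**
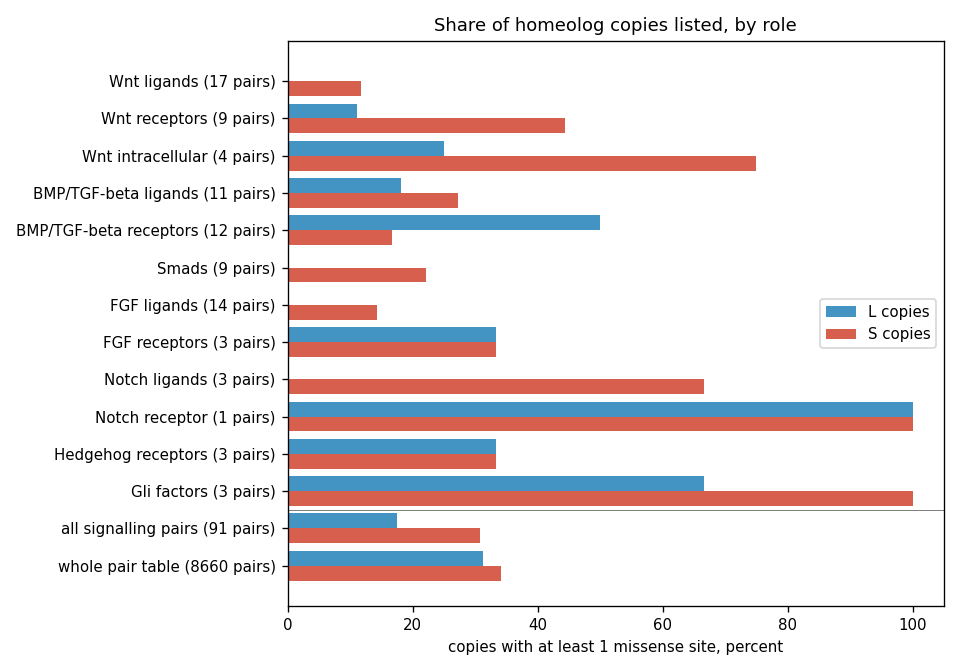
Share of L and S copies with at least 1 missense site (percent, horizontal axis) for each role in the 5 pathways, for all 91 signalling pairs and for the 8660 pairs of the whole table; the number of pairs is beside each name. L copies of Wnt ligands, FGF ligands, Notch ligands and Smads stand at 0, and BMP/TGF-beta receptors are the role in which more L than S copies were listed.

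Among the listed copies, those with the most synonymous variants belonged to Notch signalling. Synonymous sites of unlisted copies are not given. The receptor notch1.L (Xelaev18038316m) had 3 missense and 22 synonymous sites, the most sites of any listed signalling copy. Its S homeolog had 1 and 1. The ligand jag1.S (Xelaev18028524m) had 2 missense and 16 synonymous sites, while the related ligand jag2.S had 3 and 0. Over the 4 listed Notch copies 9 of 48 sites were missense (18.8%), the lowest pooled fraction of the 5 pathways, and notch1.L and jag1.S supplied 38 of the 39 synonymous sites.

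The Notch changes differed in predicted effect. PolyPhen-2 is a program that gives each amino acid change a probability of harming the protein, here from 0 to 1, mostly from an alignment of related proteins. Changes are written as the reference residue, its position in the authors' protein model and the variant residue. The notch1.L changes T587S, A609T and D2079G had probabilities of 0.078, 0.004 and 0.014, and all were benign. The only change of notch1.S, H2237Q, was probably damaging at 0.998, with 65 aligned residues behind it. Of the jag1.S changes, S102N was benign (0.008) and E475G probably damaging (0.998). In jag2.S, Q462R (0.990) and F1088S (0.998) were probably damaging and S1056G was benign (0.113). In all, 4 of the 9 Notch sites were damaging (44.4%, 18.9 to 73.3), each of them probably so, beside 19.9% damaging and 6.96% probably damaging sites over all listed genes. The interval for 9 sites is wide, and no test was made of the share by pathway.

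Among copies with at least 5 sites, Wnt receptors had both the lowest and the highest missense fraction. The co-receptor lrp6.S (Xelaev18019843m) had 1 missense and 13 synonymous sites, and its change T283N was benign (0.002). The receptor fzd6.S (Xelaev18033927m), which acts in planar cell polarity in mice, had 7 missense and 1 synonymous site, the most missense sites of any signalling copy. Of these, 6 lay within 80 residues, from position 614 to 693 (E614D, T618P, D620V, T624A, E651V and V693A), and the other was Y7C. All 6 were benign, with probabilities from 0 to 0.439, the highest for T618P, and Y7C had no prediction. The other listed Frizzleds were fzd1.S with 1 missense and 6 synonymous sites, fzd8.L with 2 and 3, and fzd10.S with 2 and 2, and their 5 changes were benign. In the 5 listed Wnt receptors 0 of 12 predicted sites were damaging (interval 0 to 24.2%).

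Inside the cell, apc.L, a scaffold of the beta-catenin destruction complex, had 4 missense and 2 synonymous sites. Its change S782R was probably damaging (0.991), and M93I (0.004), S869G (0.081) and G859V (0.418) were benign. The partner scaffolds axin1.S and axin2.S had 1 missense site each, with 1 and 3 synonymous sites, and L743S and C803Y were benign at 0.005 and 0. The Dishevelled copy dvl1.S had 2 missense and 1 synonymous site, of which F700S was benign (0.001) and R137T had no prediction. S782R was thus the only damaging site among 21 predicted sites of the Wnt copies (4.76%).

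**Figure D2:**
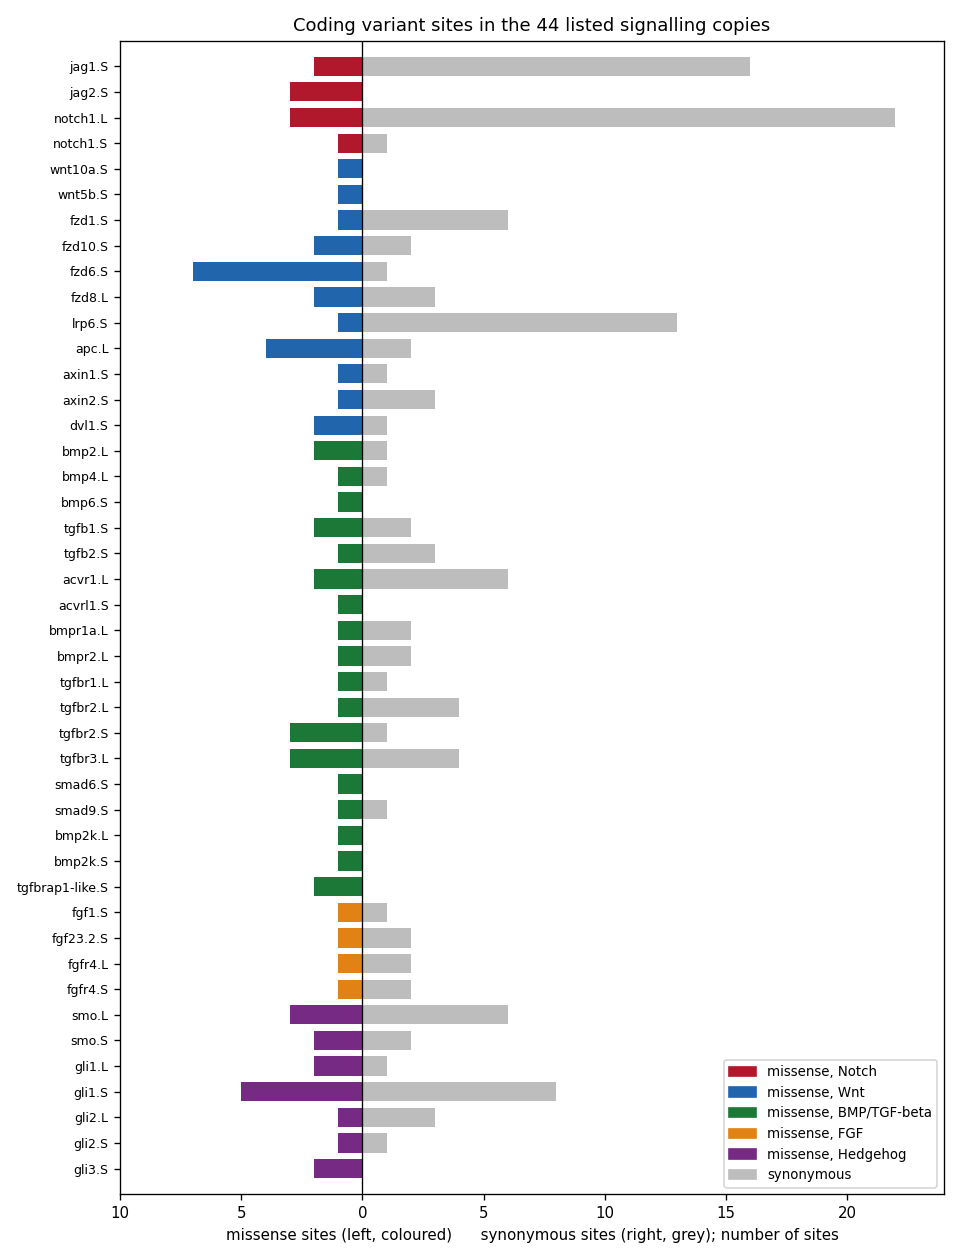
Number of missense sites (coloured bars, to the left) and synonymous sites (grey bars, to the right) in each of the 44 listed signalling copies, grouped by pathway and then by ligands, receptors, intracellular components and other genes. The long grey bars of notch1.L (22), jag1.S (16) and lrp6.S (13) and the coloured bar of fzd6.S (7) stand out from the rest.

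In BMP and TGF-beta signalling the 5 listed ligand copies held benign changes alone. The dorsoventral patterning ligands bmp2.L and bmp4.L had 2 missense sites and 1, bmp6.S had 1, tgfb1.S had 2 and tgfb2.S 1, and the highest probability among the 7 sites was 0.042 (Q221K in tgfb1.S). The receptors had 13 missense and 20 synonymous sites in 8 copies. The type I receptor acvr1.L had 2 missense and 6 synonymous sites, tgfbr2.L had 1 and 4, tgfbr2.S 3 and 1, and tgfbr3.L, the co-receptor betaglycan, 3 and 4. P420L in tgfbr3.L was the only damaging change of a listed receptor of this pathway, and was possibly damaging (0.708). By contrast, each of the 2 Smad changes was damaging: K36I in smad9.S, a BMP-responsive Smad, probably (0.971, 352 aligned residues), and E63D in smad6.S, an inhibitory Smad, possibly (0.656, 166 aligned residues). The name rule also took in genes that are not core components. Of these, bmp2k.L, a kinase named for its induction by BMP2, held P371L with the highest probability of all signalling sites (1), the site of bmp2k.S had no prediction, and tgfbrap1-like.S, related to a receptor-associated protein, held 1 possibly damaging change of 2 (V856E, 0.623).

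FGF signalling had the smallest share of listed copies of the 5 pathways, 11.8%. Of its 34 copies 28 were counted as ligands, the core role listed least often (12.2%). The 4 listed copies, of 34, held 4 missense and 7 synonymous sites, and each copy had 1 missense site. The receptor fgfr4 was listed in both copies, with the same counts of 1 missense and 2 synonymous sites, but at different positions, K74R in fgfr4.L and A153G in fgfr4.S. All 4 FGF changes were benign, with probabilities of at most 0.002.

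Hedgehog signalling had the largest share of listed copies, 7 of 12 (58.3%), with 16 missense and 21 synonymous sites. The name rule took in no Hedgehog ligand, so the shares of the pathways cover different mixtures of roles. Receptors alone were listed in 2 of 6 copies in Hedgehog as in FGF signalling. The transcription factor gli1.S, a transducer and target of the pathway, held 5 missense and 8 synonymous sites and gli1.L 2 and 1. Smoothened, the membrane protein through which the pathway signals, had 3 missense and 6 synonymous sites in smo.L and 2 and 2 in smo.S. In smo.L position 746 carried both T746M and T746S, the only one of 77 signalling positions with more than 1 variant residue; 1.36% of all positions had more than 1. All 5 Smoothened changes were benign, at 0.003 or less. Damaging changes were C1061S in gli3.S (probably, 0.938, 60 aligned residues) and N927T in gli1.S (possibly, 0.617), and the latter rested on 1 aligned residue. The benign calls of Q989H (0.398) and D1029N (0.27) in gli1.S rested on 1 and 3.

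**Figure D3:**
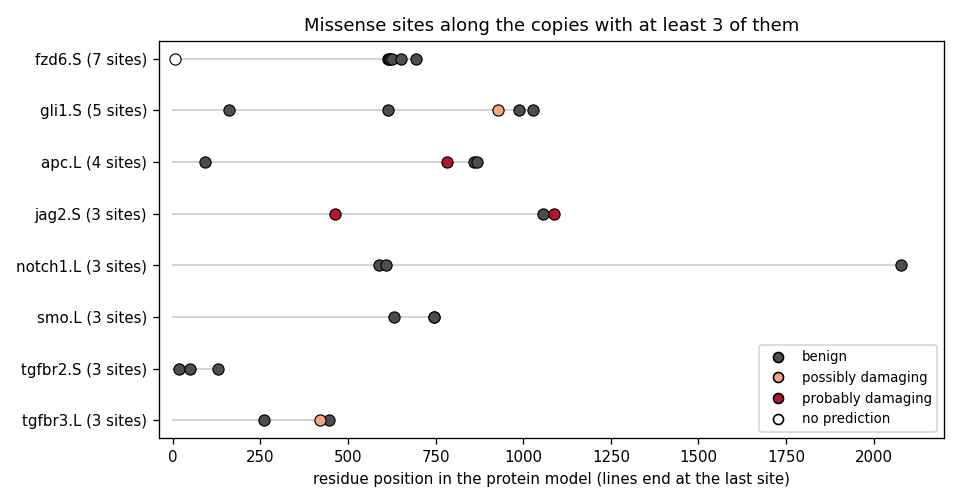
Missense sites along the protein models (residue position, horizontal axis) of the 8 signalling copies with at least 3 such sites, coloured by PolyPhen-2 class; grey lines run to the last site, not to the end of the protein, and the 2 changes at position 746 of smo.L overlap. Of the 7 sites of fzd6.S, 6 crowd between positions 614 and 693, while those of notch1.L reach from 587 to 2079.

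The next comparison asked whether any copy held more or fewer missense sites, relative to its synonymous sites, than the other listed genes. The missense fraction is the share of a copy's coding variant sites that are missense. Synonymous sites of the same copy serve as a control for its length and read depth, but an incomplete one. Listing required at least 1 missense site, so the lowest fraction a listed copy can have falls as its sites increase. Genes with synonymous sites alone are missing from the pooled values. How far this affects copies with many sites was not tested. Among the 12 copies with at least 5 sites the missense fraction was lowest in lrp6.S (7.14%, 1.27 to 31.5), jag1.S (11.1%, 3.10 to 32.8) and notch1.L (12.0%, 4.17 to 30.0), and highest in fzd6.S (87.5%, 52.9 to 97.8) and apc.L (66.7%, 30.0 to 90.3). Among the copies with fewer sites, 10 had no synonymous site (22.7% of the 44 listed copies, beside 26.8% of all listed genes). Examples are jag2.S with 3 missense sites and gli3.S with 2. Pooled over all 11603 genes the missense fraction was 42.9%, and the intervals of lrp6.S, jag1.S, notch1.L and fzd6.S did not reach that value. That reference includes genes with few sites. Among genes with at least 10 sites, the pooled fraction of the genes other than notch1.L was 37.6%.

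Over the whole table, 5005 genes with at least 5 sites were tested by Fisher's exact test, two-sided, with Benjamini-Hochberg adjustment over all of them, and 1.32% of the genes passed (0.699% with a lower and 0.619% with a higher fraction). Of the 12 signalling copies tested, 0 passed. The test takes each site as independent of the others in its gene, which was not examined. If sites of a gene vary together, its p-values are too small. By the same Fisher's exact test notch1.L had p = 0.00177 (adjusted p = 0.104), lrp6.S p = 0.00582 (adjusted p = 0.170), jag1.S p = 0.00706 (adjusted p = 0.177) and fzd6.S p = 0.0246 (adjusted p = 0.337). These were the 4 copies with an unadjusted p under 0.05, 3 lower and 1 higher, against 10.8% of all genes tested (6.25% lower and 4.6% higher). Next were fzd1.S (14.3%, exact test adjusted p = 0.676), tgfbr2.L (20.0%, adjusted p = 0.778), apc.L (adjusted p = 0.778) and acvr1.L (25.0%, adjusted p = 0.816). The fractions of smo.L (33.3%), gli1.S (38.5%), fzd8.L (40.0%) and tgfbr3.L (42.9%) had wide intervals that held the pooled value. Of the 12 copies 10 lay below the pooled fraction of the other genes (83.3%), as did 66.6% of all genes tested. Among genes with at least 10 sites, Fisher's exact test gave unadjusted p = 0.00672 for notch1.L, 0.0235 for lrp6.S and 0.0256 for jag1.S. The copy fzd6.S had too few sites to enter that fit. The count of sites limits what could be called. With 1 missense site a copy needed 19 sites in all to reach the p of the genes that passed. Of the listed signalling copies, notch1.L alone has that many. In the other direction, a copy without synonymous sites needed 9 missense sites. At least that many sites, missense and synonymous counted together, are held by 5 listed signalling copies.

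**Figure D4:**
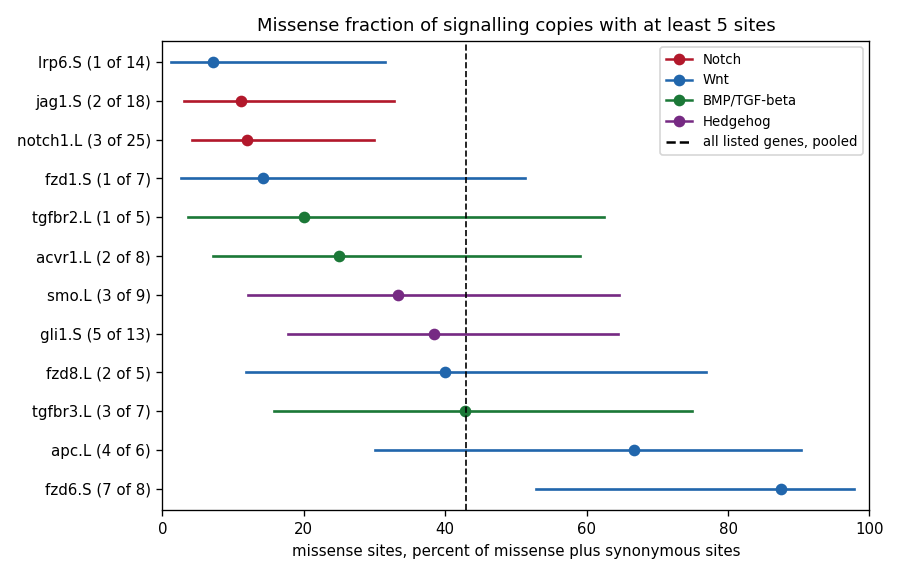
Missense fraction (percent of missense plus synonymous sites, horizontal axis) of the 12 signalling copies with at least 5 sites; points are the measured fractions, lines the 95% Wilson intervals, and the dashed line is the pooled fraction of all listed genes (42.9%). The intervals of lrp6.S, jag1.S and notch1.L end below the dashed line and that of fzd6.S begins above it.

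Pooled over the 44 copies the missense fraction was 38.0% (78 of 205 sites, 31.7 to 44.9), beside 42.9% over all listed genes and 40.2% over those of the pair table. Members were picked by gene name, and over the listed genes of the pair table with a gene symbol it was 38.6%, close to theirs. Much of the synonymous variation lay in 3 copies: notch1.L, jag1.S and lrp6.S, picked here for their low values, hold 51 of the 127 synonymous sites (40.2%), and the other 41 copies had 72 missense and 76 synonymous sites (48.6%). The median copy held 1 missense and 1.5 synonymous sites, beside 1 and 2 over all listed genes. Over copies with at least 5 sites the median missense fraction was 29.2%. It was 33.3% over all listed genes and 30.0% over those with a gene symbol. Sites number 117 in the 19 receptor copies, of which 31.6% were missense, 42 in the 11 ligand copies (38.1%) and 42 in the 11 copies of intracellular components (50.0%).

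The next question was how many of the changes were predicted to be damaging. Of 74 signalling sites with a prediction 12 were damaging (16.2%, 9.53 to 26.2), 4 possibly and 8 probably (10.8%, beside 6.96% over all listed genes), beside 19.9% of the predicted sites of all listed genes and 21.0% of those in the pair table. They lay in 11 copies (25.0% of the 44, beside 29.9% of all listed genes), 1 in each except jag2.S with 2. By role, damaging sites made up 2 of 35 predicted sites in receptors, 3 of 16 in ligands (all in Jagged) and 5 of 20 in intracellular components, and the genes outside the core pathways added 2 of 3. Only gli1.S (1 of 5, 3.62 to 62.4%) and fzd6.S (0 of 6, 0 to 39.0%) had the 5 predicted sites needed for a test, and neither passed Fisher's exact test over the 1112 genes tested (adjusted p = 1 for both), in which 0% of genes passed and 3.15% had an unadjusted p under 0.05. In fzd6.S the count of 0, the lowest possible, gave an unadjusted p = 0.606 by that exact test. A low share could therefore not be called in either copy.

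Most changes lay far from the threshold. Of the 62 benign sites 54 had a probability of at most 0.1, and the values just below and just above the limit for possible damage (0.447) were 0.439 (T618P in fzd6.S) and 0.617 (N927T in gli1.S). Of the 62 benign sites 55 had at least 10 aligned residues. The 8 probably damaging sites rested on 44 to 352 aligned residues. For 4 of them (bmp2k.L, both of jag2.S and notch1.S) no aligned relative with a different residue is recorded, as for 42.0% of the probably damaging sites of all genes; the program uses this measure, so it is not independent of the class. The median was 63 aligned residues at predicted signalling sites, beside 44 over all genes, and 4 of 78 sites (5.13%) had no prediction, beside 16.9%. Each of these 4 had 0 aligned residues.

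**Figure D5:**
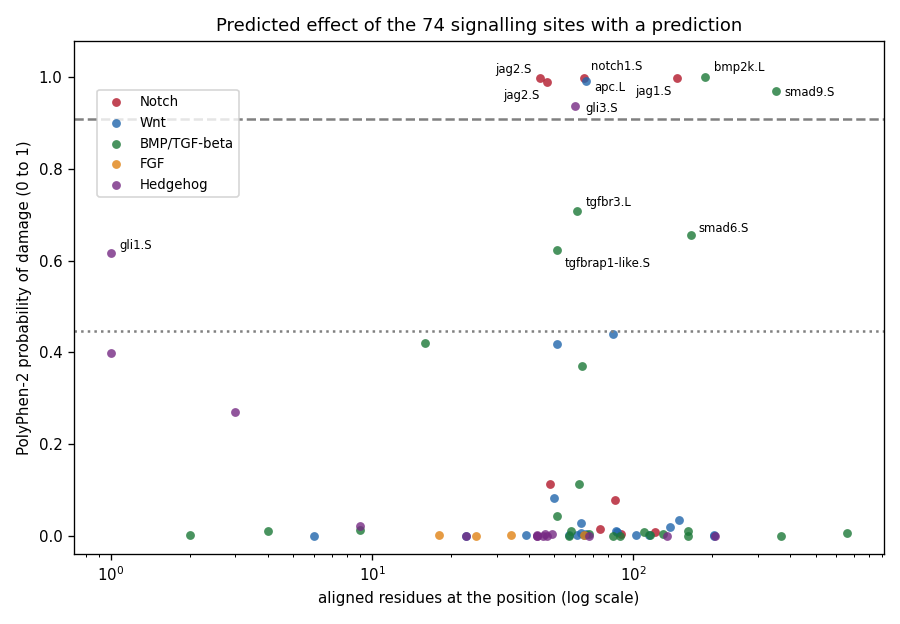
PolyPhen-2 probability of damage (vertical axis) against the number of aligned residues at the position (horizontal axis, log scale) for the 74 signalling sites with a prediction, coloured by pathway; the dotted and dashed lines mark the lowest probability of possibly (0.447) and probably (0.909) damaging sites in the whole table. The 12 damaging sites are named by their copy, and all but that of gli1.S rest on more than 10 aligned residues.

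The kinds of exchange were counted beside those of all genes. By the BLOSUM62 matrix, in which exchanges common among related proteins score above 0, 30 of the 78 signalling changes were common ones (38.5%, beside 40.1% over all genes) and 33 scored below 0 (42.3%, beside 37.7%). Scores of -2 or less were found at 21 sites (26.9%, beside 19.9%), 6 of them damaging and 14 benign. Proline was gained or lost at 10 sites (12.8%, 7.11 to 22.0, beside 9.08%), and 2 of these were damaging, P371L in bmp2k.L and P420L in tgfbr3.L. Every reference residue was counted, and methionine is named because its interval alone left out the share over all genes. With an interval for every residue, one of them may leave out that share by counting error alone, and no test was made. Methionine was the reference residue at 6 sites (7.69%, 3.57 to 15.8, beside 3.12%), as in M410L of acvr1.L and M487L of tgfbr1.L. None of the 6 was damaging, beside 26 of 905 such sites over all genes. Cysteine builds the disulfide bonds of the extracellular domains of many ligands and receptors. It was gained or lost at 4 sites (5.13%, 2.01 to 12.5, beside 3.68%), C9F in tgfb2.S, Y7C in fzd6.S, C803Y in axin2.S and C1061S in gli3.S. Of these genes, axin2 and gli3 encode intracellular components. Positions were not placed in domains here, so none of the 4 changes was tied to a disulfide bond. C1061S was the damaging one, and over all genes 289 of 1067 such changes were damaging.

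The homeologs were compared next. Missense sites were found in both copies of 7 signalling genes, in L alone of 9, in S alone of 21 and in neither of 54. These were 7.69, 9.89, 23.1 and 59.3% of the 91 pairs, beside 15.3, 15.9, 18.8 and 49.9% of all 8660 pairs. Of S copies 28 of 91 were listed (30.8%) and of L copies 16 of 91 (17.6%), beside 34.1% and 31.3% of all S and L copies in the pair table. Among Wnt genes 9 S copies and 2 L copies were listed and no gene had both. BMP/TGF-beta receptors leaned the other way, with acvr1, bmpr1a, bmpr2, tgfbr1 and tgfbr3 listed in L alone and acvrl1 in S alone. Averaged over the 91 pairs, with an unlisted copy counted as 0, S copies held 0.538 and L copies 0.319 missense sites, a difference (L minus S) of -0.220, beside -0.143 over all 8660 pairs. S held more missense sites in 23 pairs, L in 11, and 57 were equal. Over all 8660 pairs S held more in 2158, L in 1791, and 4711 were equal. The size rests in part on fzd6, with 0 missense sites in L and 7 in S: without that pair the difference was -0.144. That pair was picked for its large difference, and no pair was left out of the value over all pairs. The largest difference the other way, in apc with 4 missense sites in L and 0 in S, was kept. No test was made over the list.

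The 7 genes with both copies listed are tgfbr2, smo, notch1, gli1, gli2, fgfr4 and bmp2k. Their L copies had 12 missense sites and their S copies 14, or 1.71 and 2 per copy, a difference (L minus S) of -0.286. S was higher in 2 of them, L in 2, and 3 were equal. Synonymous sites numbered 38 in L and 15 in S, of which notch1.L holds 22. The missense fraction of L and S could not be compared within any of them at the minimum of 5 sites in each copy, a test in which 480 pairs of the whole table entered and 0% passed Fisher's exact test after adjustment, with 3.33% at an unadjusted p under 0.05.

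Other genes of the 5 pathways were collected, among them further ligands, secreted inhibitors, processing enzymes, co-receptors and transcriptional partners. This list of 115 names and 230 copies was read from the same fits. Of these copies 66 (28.7%) were listed, with 139 missense and 211 synonymous sites (39.7% missense) and 30 of 137 predicted sites damaging (21.9%). Of 28 copies tested for the missense fraction 1 passed over all genes, against 1.32% of genes, with a higher fraction: fgfbp3.S, an FGF-binding carrier protein, in which 16 of 19 sites were missense (adjusted p = 0.0354, Fisher's exact test). The next was lgr4.S, a receptor for the Wnt-enhancing R-spondins, with 1 and 14 (exact p = 0.00339, adjusted p = 0.135), while lgr4.L had 4 and 12. Those after it did not pass either: flrt1.S with 1 and 9 and flrt3.S with 1 and 8 (both of a family that binds FGF receptors), the shedding protease adam17.S with 2 and 10, and dner.L, a Notch-related membrane protein, with 1 and 8 (Fisher's exact adjusted p from 0.407 to 0.525). In the Notch genes of this list 29 of 99 sites in 14 copies were missense (29.3%). Of their 29 predicted sites 11 were damaging (37.9%, 22.7 to 56), beside 19.9% over all listed genes. Notch is named because its damaging share was the highest of the 5 pathways in this list and its missense fraction the lowest. The damaging share was 24% in the Wnt, 20% in the BMP/TGF-beta, 16.7% in the Hedgehog and 13.6% in the FGF genes. The copy dner.S alone held 3 of the 11 damaging Notch sites. The pathways were not tested against one another. Among secreted Hedgehog ligands, shh.S had 6 missense and 5 synonymous sites, and 0 of its 6 changes were damaging. The copy shh.L and both copies of dhh and ihh were not listed. Among the copies of the ligands nodal, nodal1, nodal2, gdf5, gdf6, inhba, inhbb and amh, gdf6.S alone was listed.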

How the data were processed

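Values are from 3 tables of the whole series. Counts of missense and synonymous sites per gene, and of their PolyPhen-2 classes, are as the authors deposited them; libraries were pooled. The per-site table gives, per the file headers, the predicted probability as a fraction from 0 to 1, a profile score and identity as a percent, with aligned residues. TopHat, SAMtools, Trimmomatic and CASAVA 1.8.2 appear in the submitters' processing notes. Variant caller, filters and build: not given in the sources used here. Of 11604 entries 1 was a header line, leaving 11603, whose class counts all equalled the per-site tallies.

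Computed here (Python 3.11.15, scipy 1.17.1, pandas 2.3.3): Fisher's exact tests of each gene against all other listed genes, and of L against S, with Benjamini-Hochberg adjustment over all genes or pairs and a threshold of 0.05, at a minimum of 5 sites. The fits were tested on simulated data. Strong effects on the missense fraction were planted there only in genes with many more sites than the median of 3 per signalling copy. The simulation thus does not show how that fit performs for copies with few sites. Listed copies are named with their counts; full statistics go to those with the smallest p. Members, lists and tests were chosen with earlier results of these data known; the list of other pathway genes was written by name. RefSeq (v10.1) symbols matched 151 of 182 copies and served as a check of names. Protein sequences were not used here. Alternatives were other minimums, comparison genes, damage classes and member sets.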

Additional observations from a re-analysis of the deposited data

How the results depend on the processing

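The number of signalling copies that passed for the missense fraction stayed at 0 with no minimum of sites, with at least 10 sites, after leaving out the most site-rich 1% of genes and against the pair table alone, as did the number for the damaging share under its 4 alternatives, and the number of pairs with no minimum (7 pairs tested) or at least 10 sites (0 tested). Adjusted p of Fisher's exact test ranged from 0.0946 to 0.241 for notch1.L, 0.186 to 0.394 for lrp6.S, 0.186 to 0.410 for jag1.S and 0.219 to 0.757 for fzd6.S. Of 40 values for single copies 37 kept their direction and side of the threshold. The others came to lie above the reference: gli1.S (38.5%) with at least 10 sites, and tgfbr3.L (42.9%) without the site-rich genes and against the pair table. A copy's own fraction is the same in all settings, and only the reference and the adjustment change. Fractions far from the reference could therefore not change direction. No copy passed in the main fit, so no call could be lost, and no signalling pair entered the main test of pairs. The pooled missense fraction was 36.8 to 41.7%, the mean over copies with at least 5 sites was 33.2% (37.8% over all genes), and the damaging share 10.8 to 16.7% (10.8% for probably damaging sites, beside 6.96% over all genes). In alternatives chosen after seeing the data, the mean L minus S difference was -0.144 without fzd6, and the share of copies listed was 23.0% without genes outside the core pathways, and 6.59% when 5 sites were required, beside 15.0% in the pair table. No paired analysis was possible because each group has 1 library and no column names one.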
